A study of Mus musculus with 7 samples.

Results

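A set of 5 transfer RNAs (tRNAs) encoded near the rRNA genes of the mouse mitochondrial genome, those for phenylalanine (mt-Tf), valine (mt-Tv), leucine with the UUR codons (mt-Tl1), isoleucine (mt-Ti) and methionine (mt-Tm), were followed base by base in the CIRS-seq data of E14 mouse embryonic stem cells (ESCs). They were chosen by gene symbol, not by a measured value, and are 5 of the 37 mitochondrial genes and of the 13218 genes with counts. CIRS-seq reads chemical probing of RNA structure as stops of reverse transcription (RT). Of the reagents used, dimethyl sulfate (DMS) marks A and C, and the carbodiimide CMCT marks U and more weakly G, both where the pairing face of the base is free. A non-treated (NT) library shows where RT stops by itself. All samples came from the 1 cell line E14 mESC, of strain 129/Ola. For CIRS-seq, cells were lysed, the lysate was treated with Proteinase K, and naked RNA was probed with DMS (aliquots from 50 to 200 mM, pooled) or with CMCT (10 to 50 mM, pooled), while NT pooled the 0 mM aliquots of both probing buffers. Each of the 3 conditions had 2 replicates, which gave 6 libraries after depletion of rRNA and random-primed RT. A single RNA-seq library without a replicate came from the same line, without probing and also depleted of rRNA.

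Mitochondrial tRNAs are cut out of long transcripts of the mitochondrial genome, in which they sit between rRNAs and mRNAs, so that release of a tRNA also frees the ends of its neighbors. Most of these tRNAs fold into a cloverleaf with an acceptor stem, a D arm, an anticodon arm and a T arm, and they carry many modified bases. In many of them the purine at position 9, between the acceptor stem and the D stem, is methylated at N1, a group on the pairing face of the base that stops RT without any reagent. Modified bases are also known in the anticodon loop, at the first anticodon base and just after the anticodon.

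The genomic sequences are given first, because the stops below are read against them. Capitals mark the base at position 9 and the 3 anticodon bases. All were read from the plus strand of the mitochondrial genome (chrM) in mm9, the build of the files, and each is the whole annotated tRNA gene, 1 exon without a UTR.

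mt-Tf: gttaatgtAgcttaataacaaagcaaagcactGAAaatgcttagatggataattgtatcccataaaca

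mt-Tv: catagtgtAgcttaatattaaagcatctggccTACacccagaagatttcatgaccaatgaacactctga

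mt-Tl1: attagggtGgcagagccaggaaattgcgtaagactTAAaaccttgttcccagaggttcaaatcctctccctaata

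mt-Ti: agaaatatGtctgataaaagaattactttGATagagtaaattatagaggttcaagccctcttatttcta

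mt-Tm: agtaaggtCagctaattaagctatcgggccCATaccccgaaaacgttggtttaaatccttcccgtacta

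The gene mt-Tf (ENSMUSG00000064336) lies at chrM:1-68, just before the 12S rRNA gene mt-Rnr1. The gene mt-Tv (ENSMUSG00000064338) lies at chrM:1025-1093, between mt-Rnr1 and the 16S rRNA gene mt-Rnr2. The gene mt-Tl1 (ENSMUSG00000064340) lies at chrM:2676-2750, between mt-Rnr2 and mt-Nd1, which encodes a subunit of respiratory complex I. The gene mt-Ti (ENSMUSG00000064342) lies at chrM:3706-3774 and shares its first 2 bases with the end of mt-Nd1 and its last 3 with mt-Tq on the other strand. The gene mt-Tm (ENSMUSG00000064344) lies at chrM:3845-3913, before mt-Nd2. Their lengths were 68, 69, 75, 69 and 69 bases, and their GC contents ran from 27.5% in mt-Ti to 44.9% in mt-Tm. Position 9 is A in mt-Tf and mt-Tv, G in mt-Tl1 and mt-Ti, and C in mt-Tm, the only pyrimidine there among the 5. The cloverleaf fitted to each sequence holds 20 pairs in mt-Tf, mt-Tv, mt-Tl1 and mt-Ti and 18 in mt-Tm.

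Counts were raw numbers of RT stops, placed on the modified base. With each genomic position taken once per gene, the 6 libraries held from 140186204 to 247369982 RT stops, and the mitochondrial genes from 572140 to 1778473 of them. RT stops were found only in the 5′ part of each tRNA. The last position with a stop was 37 in mt-Tf, 38 in mt-Tv, mt-Tl1 and mt-Tm, and 33 in mt-Ti, so the D arm and most of the anticodon arm were measured, and the T arm and the 3′ acceptor strand were not. For mt-Tf and mt-Tv every run of 25 bases from a measured position onward occurs once in mm9. For the others some runs occur elsewhere too, in at most 3 places for mt-Ti and 2 for mt-Tl1 and mt-Tm, and the positions found once held 99.5%, 94.1% and 88.1% of the stops of mt-Tl1, mt-Ti and mt-Tm. Bulk RNA does not tell fewer cells from less RNA per cell, and a total of RT stops does not tell more RNA from more frequent stops. As a check of the cell type, the RNA-seq library held all 8 stem cell markers looked for, Pou5f1 among them at 75.0 RPKM and Dppa5a at 220.7, against at most 3.05 RPKM for 4 genes of early differentiation and at most 0.235 for 4 of fibroblasts.

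The replicates need a remark before the results. At positions within 50 bases of the 3′ end of a tRNA, raw counts of the 2 replicates were far closer than counting noise allows. The median gap between replicates there was 0.127 Poisson standard deviations in NT, 0.189 in DMS and 0.0810 in CMCT, where counting noise alone gives 0.674. Farther than 50 bases from the 3′ end the median gaps were 1.03, 3.87 and 0.557. The U at position 33 of mt-Tm, the last anticodon base, held 413 and 413 stops in NT, 336 and 338 in DMS, and 11269 and 11268 in CMCT, although the CMCT libraries differ in depth. Across the whole series, 17.8% of NT positions with at least 50 stops had replicates within 0.1 standard deviations, and the values for DMS and CMCT were 19.8% and 18.9%. Replicates near the 3′ end were therefore counted as 1 measurement, and no p-value is given there. Elsewhere p-values measure the spread between 2 libraries per condition, which may itself be too small. Beyond 50 bases 37 of 65 CMCT positions also had gaps below the median of counting noise, with 12 of 14 in mt-Tf and 7 of 9 in mt-Ti. The border of 50 bases was chosen after the counts were seen. Of the 184 measured positions, 117 reached 50 stops over the 6 libraries, the treated ones included. Of these, 52 lay near the 3′ end and 2 others had replicates nearer than noise, which left 63 positions for tests. What the nearness of the replicates comes from was not tested.

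**Figure D1:**
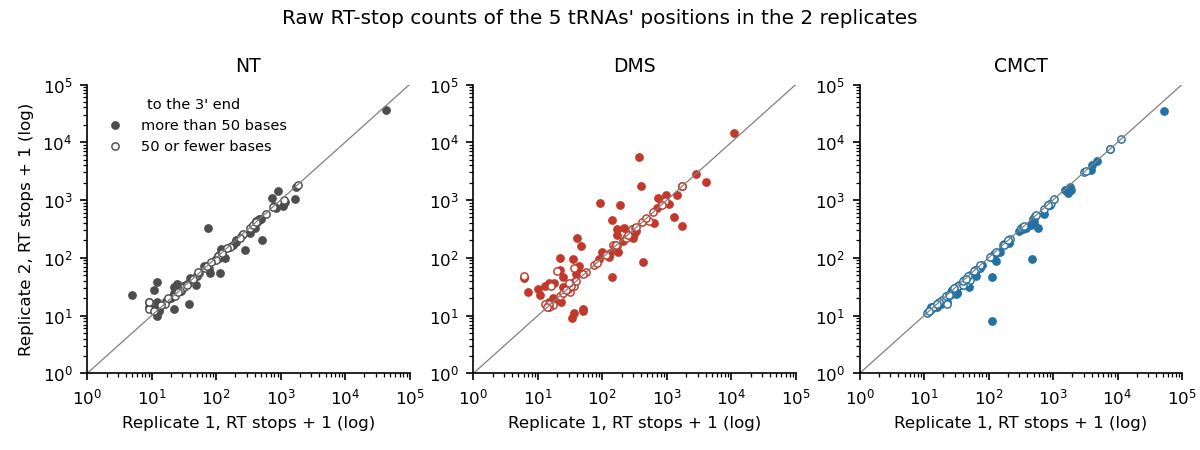
Raw RT-stop counts plus 1 (log axes) at every position of the 5 tRNAs with at least 20 stops in both replicates together, replicate 1 against replicate 2, for NT, DMS and CMCT; the line marks equal counts. Open points, 50 or fewer bases from the 3′ end, hug the line (median gap 0.0810 Poisson standard deviations in CMCT). Filled points lie farther from it, most of all in DMS (median gap 3.87). In CMCT their median gap of 0.557 is also below the 0.674 of counting noise.

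In all 6 libraries mt-Tv gave the most RT stops, then mt-Tm, and mt-Ti the fewest. Per base of annotated length and summed over all 6 libraries, raw stops came to 4757 for mt-Tv, 1160 for mt-Tm, 269 for mt-Tf, 170 for mt-Tl1 and 38.9 for mt-Ti. Per base, the middle pair changed places between libraries. NT replicate 1 held 25.6 stops per base in mt-Tf and 24.2 in mt-Tl1, and NT replicate 2 held 31.03 and 31.99, with the same exchange in DMS replicate 2. In raw stops NT replicate 1 held 1743 in mt-Tf and 1818 in mt-Tl1, so the order there rests on the annotated lengths. The order of the other neighbors was the same in every library.

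Without any reagent, RT stopped often at position 9 in the 4 tRNAs with a purine there, with 33.3% to 77.8% of a tRNA's stops per library. In mt-Tv, 77.8% and 77.7% of all stops in the NT replicates fell on this 1 base (42784 and 35865 stops), a near-identical share in both. Position 9 of mt-Tf took 42.5% and 50.9% of the NT stops, that of mt-Tl1 50.2% and 60.6%, and that of mt-Ti 33.3% and 65.6%. The spread in mt-Ti is wide and rests on few stops, 74 of 222 in replicate 1 and 333 of 508 in replicate 2. In mt-Tm, where base 9 is C, the shares were 7.40% and 3.16%, and the position with most stops was 31. With both NT libraries together, position 9 was the top position in 4 of 4 tRNAs with a purine and not in the 1 with a pyrimidine. In mt-Tf this holds in NT replicate 2 only, since in replicate 1 position 36 held 754 stops and position 9 held 741. Of the other 17 mitochondrial tRNAs, 15 have a purine at position 9, and it was the top NT position in 11 of them, with a median over the 15 of 54.9% for the mean NT share. Among the exceptions are mt-Tr, with 0% of 117 and of 124 NT stops, and mt-Th, with 0.737% and 0.852%. The 2 with a pyrimidine, mt-Ts1 and mt-Ts2, had shares from 8.15% to 11.1% and another top position. For mt-Ts2 this rests on only 27 and 18 NT stops, against 472 and 503 for mt-Ts1. These are descriptions of 2 libraries per condition, and the tRNAs were not tested against each other.

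**Figure D2:**
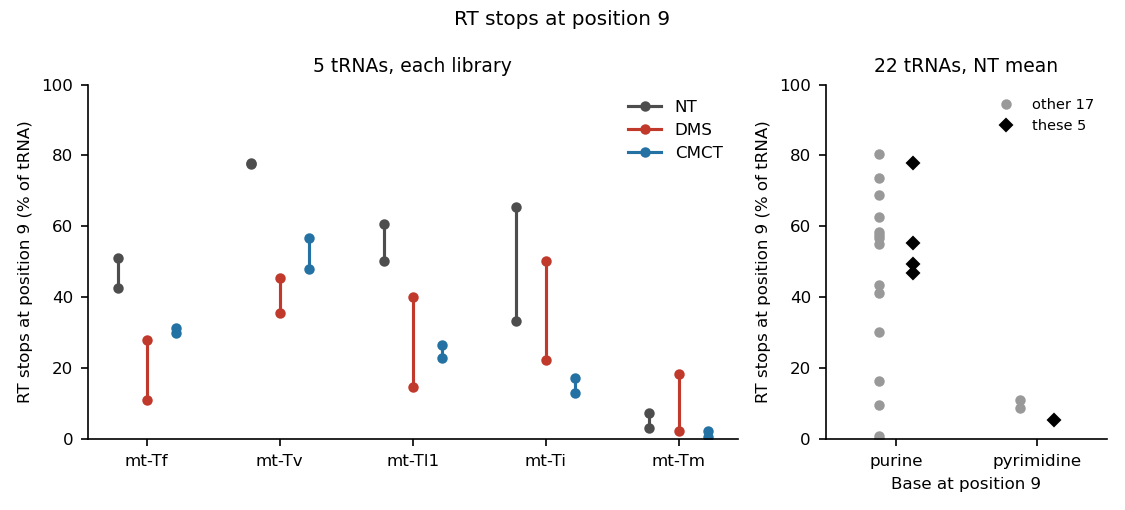
Share of a tRNA's RT stops at position 9 (%). Left, each library of the 5 tRNAs, with replicates joined by a line; right, the mean of the 2 NT libraries for all 22 mitochondrial tRNAs by the kind of base at position 9. In NT the 4 purine tRNAs lie between 33.3% and 77.8% and mt-Tm at 7.40% and 3.16%.

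DMS lowered the share of position 9 in mt-Tv, and no other change at position 9 passed the test. For mt-Tv it went from 77.8% and 77.7% in NT to 35.7% and 45.4% in DMS and 56.7% and 48.1% in CMCT, with no overlap between NT and either treatment. The drop in DMS passed the test (log2 fold change -0.94 ± 0.16 SE, edgeR adjusted p = 0.0231), and that in CMCT did not (-0.57 ± 0.16, edgeR adjusted p = 0.0990). For mt-Tf the DMS shares were 11.1% and 28.0% and the CMCT shares 31.3% and 30.0%, also below both NT libraries. For mt-Tl1 they were 14.67% and 39.95% in DMS and 26.4% and 22.9% in CMCT, again below NT. Neither passed, with edgeR adjusted p = 0.126 and 0.219 for DMS and 0.416 and 0.199 for CMCT. For mt-Ti the DMS shares of 22.2% and 50.3% overlapped NT, and the CMCT shares of 17.1% and 12.9% lay below it (edgeR adjusted p = 0.123). In mt-Tm the DMS replicates stood far apart at 18.3% and 2.32%. Shares of 1 tRNA sum to 100%, so stops gained at some positions lower the share of all others. In an alternative, each library was scaled to its TMM-scaled size, its total times a TMM factor, instead of to the tRNA. The factors were 0.88 and 0.74 in NT, 1.14 and 1.22 in DMS, and 1.02 and 1.08 in CMCT. Compared with plain totals, they lower DMS and CMCT values against NT. So scaled, the DMS drop of mt-Tv at position 9 was -2.10 on the log2 scale (edgeR adjusted p = 0.0175).

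A further strong NT stop lay in the anticodon loop or just before the anticodon stem in 3 of the tRNAs, at positions where the replicates count as 1 measurement. In mt-Tf it was A36, the base after the anticodon, a place where this tRNA is known to carry a bulky modified adenosine. It held 754 and 772 stops in NT, 854 and 886 in DMS, and 3018 and 3015 in CMCT, which is 43.3% and 36.6% of the NT stops. Positions 9 and 36 together thus held most NT stops of mt-Tf. In mt-Tm it was C31, the first anticodon base, known to carry a formyl group, with 1849 and 1849 stops in NT, 1736 and 1749 in DMS, and 3214 and 3216 in CMCT. That is 26.9% and 28.4% of NT stops. In mt-Tl1 it was G28, the base between the D stem and the anticodon stem, with 412 and 428 stops in NT, 409 and 413 in DMS, and 845 and 832 in CMCT, or 22.7% and 17.8% of NT stops. The whole anticodon loop held 44.0% and 37.3% of the NT stops of mt-Tf, but 1.68% and 1.92% of those of mt-Tv. In mt-Ti this loop held 0.450% and 0.197%. Further NT stops of mt-Tm lay at U8 with 11.64% and 12.05% and at C12 with 7.10% and 7.30%.

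**Figure D3:**
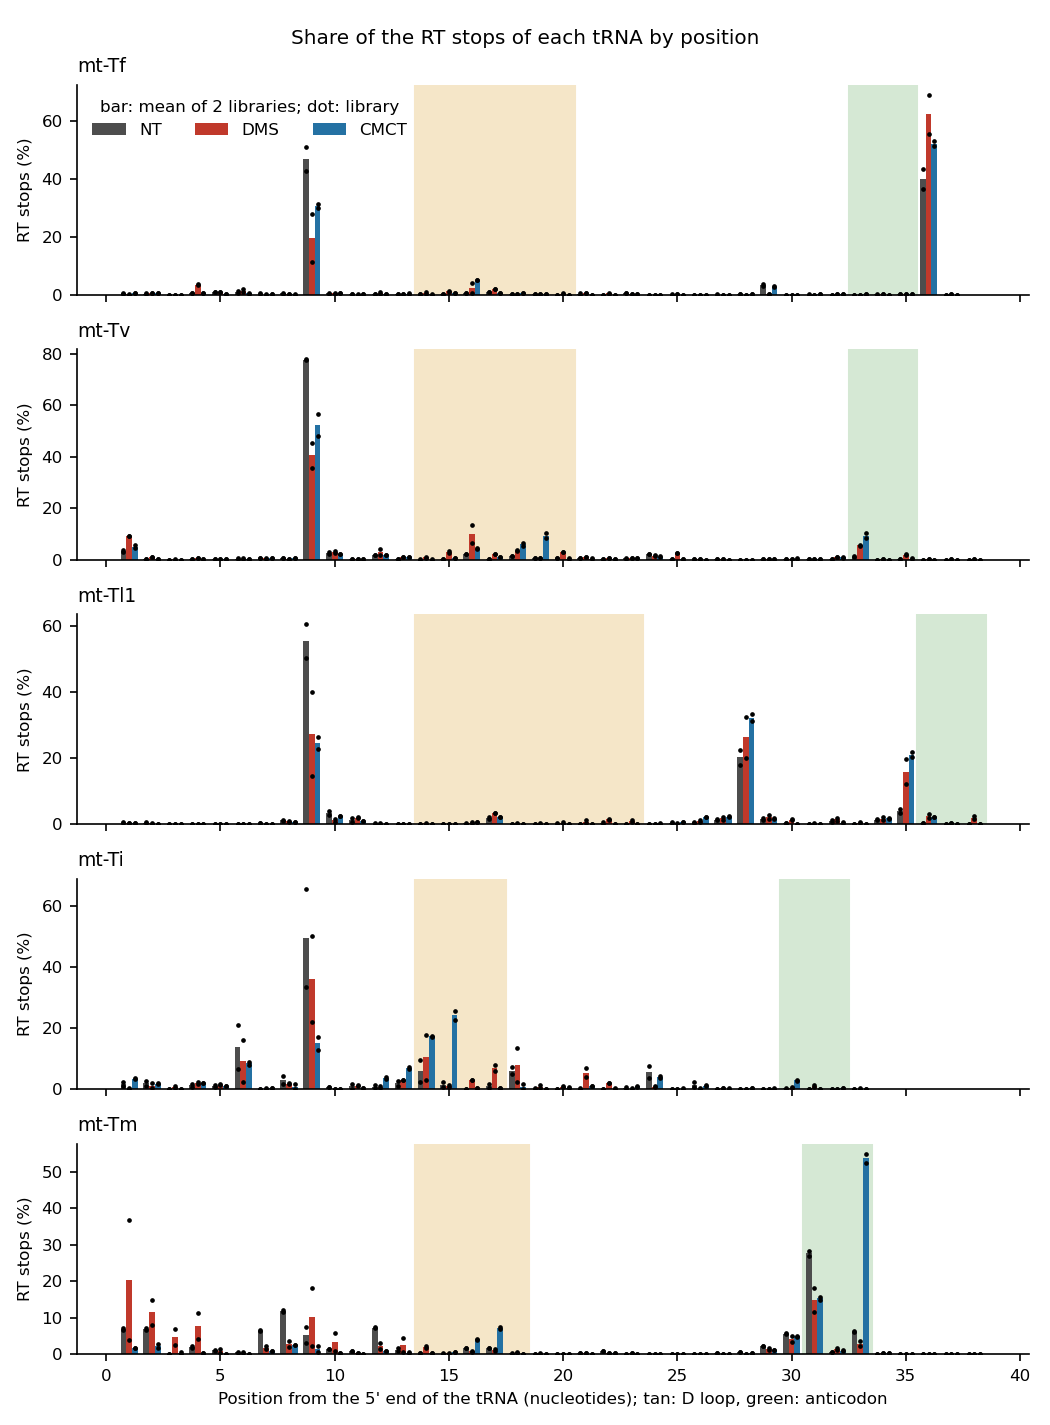
Share of each tRNA's RT stops (%) by position from its 5′ end in nucleotides, for NT, DMS and CMCT; bars are means of 2 libraries, dots the libraries, tan the D loop and green the anticodon. Position 9 stands out in every tRNA except mt-Tm, a second peak lies at position 36 of mt-Tf, and CMCT raises position 33 of mt-Tm to 52.5% and 55.0%.

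To ask which bases the reagents reached, RT stops at each position were compared with NT relative to the total of the tRNA. DMS raised stops at 13 of the 63 tested positions, 20.6%, and lowered them at 6, or 9.52%. Over all 736975 positions of the series, 13.4% were called higher and 8.49% lower, so the share of drops lies near that of all positions. CMCT raised stops at 6 positions and lowered them at 6, which is 9.52% each, where 5.1% and 4.34% of all positions were called. The series-wide shares, in DMS too, include positions near 3′ ends and the 21.0% with near-equal replicates, which were left out for the tRNAs. The sets are thus unlike. With near-equal positions removed, CMCT called 7721 of 582302 positions of the series. Of the 13 DMS rises 9 were at A, 1 at C and 3 at U. Of the 6 CMCT rises 5 were at U and 1 at A. Over the 117 positions with enough stops, the median log2 change in DMS was 1.47 at A, 0.31 at C, 0.37 at U and -0.14 at G. In CMCT it was 0.86 at U, -0.02 at C, -0.37 at A and -0.40 at G. These are changes in share of the tRNA, and positions could pass the filter through treated libraries where they are high. Without either NT library, without DMS replicate 2 for DMS, or without CMCT replicate 2 for CMCT, 0 positions of these tRNAs passed. In DMS 0 of the 736975 positions of the series passed then, so this is not particular to the tRNAs. An alternative scaled each library to its TMM-scaled size instead of to the tRNA. There the total of the tRNA itself and the TMM factors move the value. The alternative kept 7 of the 19 DMS calls and 5 of the 12 CMCT calls. Those kept in DMS were A14, A15 and A9 of mt-Tv, G1 of mt-Tf, and A14, G7 and U8 of mt-Tm, and those in CMCT were rises, at U13 and U18 of mt-Tv, U15 of mt-Ti, and U16 and U17 of mt-Tm.

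Among the tested positions, the D loop held most of the rises, while 0 positions of the anticodon loops could be tested. DMS raised 9 of its 19 tested positions over the 5 tRNAs and lowered 1, and CMCT raised 5 and lowered 1. In mt-Tv, A14 held 21 and 24 stops in NT and 216 and 322 in DMS (log2 fold change 4.26 ± 0.34 SE, edgeR adjusted p = 0.00829). The next A, at position 15, went from 184 and 166 stops to 1063 and 839 (3.15 ± 0.20, edgeR adjusted p = 0.00769). A17 held 203 and 189 stops in NT, 692 and 735 in DMS and 859 and 822 in CMCT, and rose with both reagents (2.57 ± 0.17 in DMS, edgeR adjusted p = 0.00776, and 1.40 ± 0.16 in CMCT, edgeR adjusted p = 0.0199). U18 held 850 and 718 stops in NT, 973 and 1205 in DMS and 4893 and 4733 in CMCT (CMCT 1.93 ± 0.17, edgeR adjusted p = 0.0104). U16 rose in DMS from 1165 and 936 stops to 4053 and 2085 (2.27 ± 0.37, edgeR adjusted p = 0.0201). All D-loop positions of mt-Tv together took 5.47% and 5.65% of its stops in NT, 26.7% and 20.1% in DMS, and 19.5% and 23.5% in CMCT.

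The D loops of the other tRNAs showed fewer calls. In mt-Tf, A15 went from 6 and 4 stops in NT to 16 and 16 in DMS (2.10 ± 0.37, edgeR adjusted p = 0.0243), and A17 from 19 and 19 to 24 and 30 (0.94 ± 0.22, edgeR adjusted p = 0.0470). In mt-Tm, A14 went from 28 and 26 stops to 170 and 318 in DMS (2.27 ± 0.20, edgeR adjusted p = 0.00879), while in CMCT, with 38 and 33 stops, its share of the tRNA fell (-1.25 ± 0.20, edgeR adjusted p = 0.0344) and its level relative to the library did not pass (-0.10, edgeR adjusted p = 0.913). U16 and U17 of mt-Tm rose in CMCT. U17 held 108 and 108 stops in NT, 131 and 120 in DMS and 1507 and 1498 in CMCT (CMCT 2.15 ± 0.30, edgeR adjusted p = 0.0283), and U16 held 111 and 100, 87 and 96, and 846 and 836 (CMCT 1.35 ± 0.23, edgeR adjusted p = 0.0383). In mt-Ti, U15 went from 5 and 3 stops in NT to 173 and 173 in CMCT (4.28 ± 0.64, edgeR adjusted p = 0.0313), while A17 went from 1 and 9 to 16 and 19 in DMS (2.39 ± 0.55, edgeR adjusted p = 0.0457). The D-loop share of mt-Ti was 12.2% and 4.72% in NT and 41.0% and 43.7% in CMCT. In mt-Tl1, which has the longest D loop of the 5 with 10 bases, 0 of 8 tested positions passed in either treatment, and its C17 in the D loop went from 39 and 43 stops to 43 and 70 in DMS (0.79, edgeR adjusted p = 0.0533). With each library at its TMM-scaled size, DMS changes were 1.22 and 0.04 at A15 and A17 of mt-Tf on the log2 scale. They were 1.08, 1.40 and 0.02 at U16, A17 and U18 of mt-Tv and 1.27 at A17 of mt-Ti. None of these passed the threshold. With positions of near-equal replicates left out across the series, U15 of mt-Ti and U16 and U17 of mt-Tm no longer passed in CMCT (edgeR adjusted p = 0.0526, 0.0962 and 0.0592) at nearly the same fold changes, and 3 CMCT calls were left, those at U13 and U18 of mt-Tv and G7 of mt-Tm. In DMS 14 of the 19 calls were left, and those lost were G1 and A17 of mt-Tf, A17 of mt-Ti, and C12 and U16 of mt-Tm (edgeR adjusted p from 0.0520 to 0.134), also at nearly the same fold changes.

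Outside the D loop, single positions moved. DMS raised A4 in the acceptor stem of mt-Tf from 8 and 16 stops to 44 and 53 (2.48 ± 0.30, edgeR adjusted p = 0.0125), at a place where the cloverleaf has no pair. At TMM-scaled library sizes this change did not pass (1.498, edgeR adjusted p = 0.0897). In mt-Tv it raised A4, C1 and U13, the last from 136 and 99 stops to 305 and 261 (1.99 ± 0.19, edgeR adjusted p = 0.00943), and CMCT raised U13 to 909 and 806 (2.18 ± 0.19, edgeR adjusted p = 0.00999). C1 held 1715 and 1714 stops in NT and 2798 and 2846 in DMS, and A4 held 79 and 53, and 165 and 252. All 3 are paired in the cloverleaf, U13 as the last base of the D stem before the loop. At TMM-scaled library sizes their DMS changes of 0.24, 1.23 and 0.82 at C1, A4 and U13 did not pass. In mt-Tm both treatments lowered the shares of G7, U8 and C12. The runs of 25 bases from G7 and from U8 also occur at 1 place outside the mitochondrial genome, so stops there could come from either place. U8 held 801 and 785 stops in NT, 335 and 290 in DMS and 507 and 497 in CMCT (DMS -2.13 ± 0.33, edgeR adjusted p = 0.0187, CMCT -2.31 ± 0.33, edgeR adjusted p = 0.0292). The share of mt-Tm in CMCT is dominated by position 33. At TMM-scaled library sizes the CMCT changes at G7, U8, G11 and C12 of -1.64, -1.13, -1.39 and -1.82 no longer passed. Nor did the DMS change of -1.39 at C12. In mt-Tf, G1 fell in DMS, from 9 and 9 stops to 2 and 1, and A5 fell in CMCT only relative to the tRNA, with 16 and 17 stops in NT and 20 and 17 in CMCT (-0.34 relative to the library, not passed).

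Of the positions with at least 50 stops over the 6 libraries, 2 had no NT stop at all. U3 of mt-Tm held 0 and 0 stops in NT, 643 and 400 in DMS, and 112 and 7 in CMCT. Set against 3 stops over both NT libraries together, the limit a count of 0 allows, its share was at least 188-fold higher in DMS and at least 12.7-fold higher in CMCT. Each library alone gave bounds of 302-fold and 117.5-fold in DMS, but of 23.3-fold and 1.526-fold in CMCT, so that the CMCT bound rests on replicate 1. U3 of mt-Tv held 0 and 0, 49 and 11, and 16 and 0 stops, at least 32.7-fold higher in DMS, with 54.4-fold and 11.8-fold from the single libraries. Neither passed the test (edgeR adjusted p = 0.0670 for U3 of mt-Tm in DMS), and these bounds cover counting error only. Position 3 also held 0 and 0 NT stops in mt-Tf, mt-Tl1 and mt-Ti, while positions 2 and 4 of every tRNA held some. In mt-Tv these neighbors held 115 and 116, and 79 and 53 NT stops. The lack of NT stops is thus not particular to U3 of mt-Tm and mt-Tv. The bounds rest on this gap, and where it comes from was not tested. At the first base of mt-Tm the DMS replicates held 366 and 5616 stops, with 462 and 461 in NT and 385 and 321 in CMCT, so that 1 library holds nearly all of the excess.

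In the anticodon loops, 13 of 19 positions with enough stops lay above both NT libraries in DMS and 5 below, and 15 lay above and 4 below in CMCT, given here without a test. Over all 117 such positions of the 5 tRNAs, 52 lay above and 32 below in DMS, and 49 above and 51 below in CMCT. The filter counts stops over all 6 libraries, so positions with few NT stops could enter through treated libraries where they are high. Of the anticodon-loop positions above NT, mt-Tv gave 7 in DMS and 7 in CMCT. In mt-Tm 4 of 6 loop positions lay below NT in DMS. U33 of mt-Tm took 6% and 6.34% of the stops in NT and 52.5% and 55.0% in CMCT. This base ends the CAT anticodon, and the A before it held 0.625% and 0.645% in NT and 1.70% and 1.09% in DMS. The first anticodon base of mt-Tv, U33, held 600 and 583 stops in NT, 1730 and 1721 in DMS, and 7617 and 7599 in CMCT. Of the same tRNA, U19 in the D loop, also within 50 bases of the 3′ end, held 339 and 329, 171 and 157, and 7594 and 7555. In mt-Tl1, the U at position 35, just before the anticodon, held 83 and 83 stops in NT, 248 and 250 in DMS, and 549 and 549 in CMCT, while its last anticodon base, A38, went from 5 and 4 in NT to 32 and 31 in DMS and 3 and 3 in CMCT. In mt-Ti only G30, the first anticodon base, stood out, with 1 and 1, 1 and 2, and 21 and 21 stops.

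**Figure D4:**
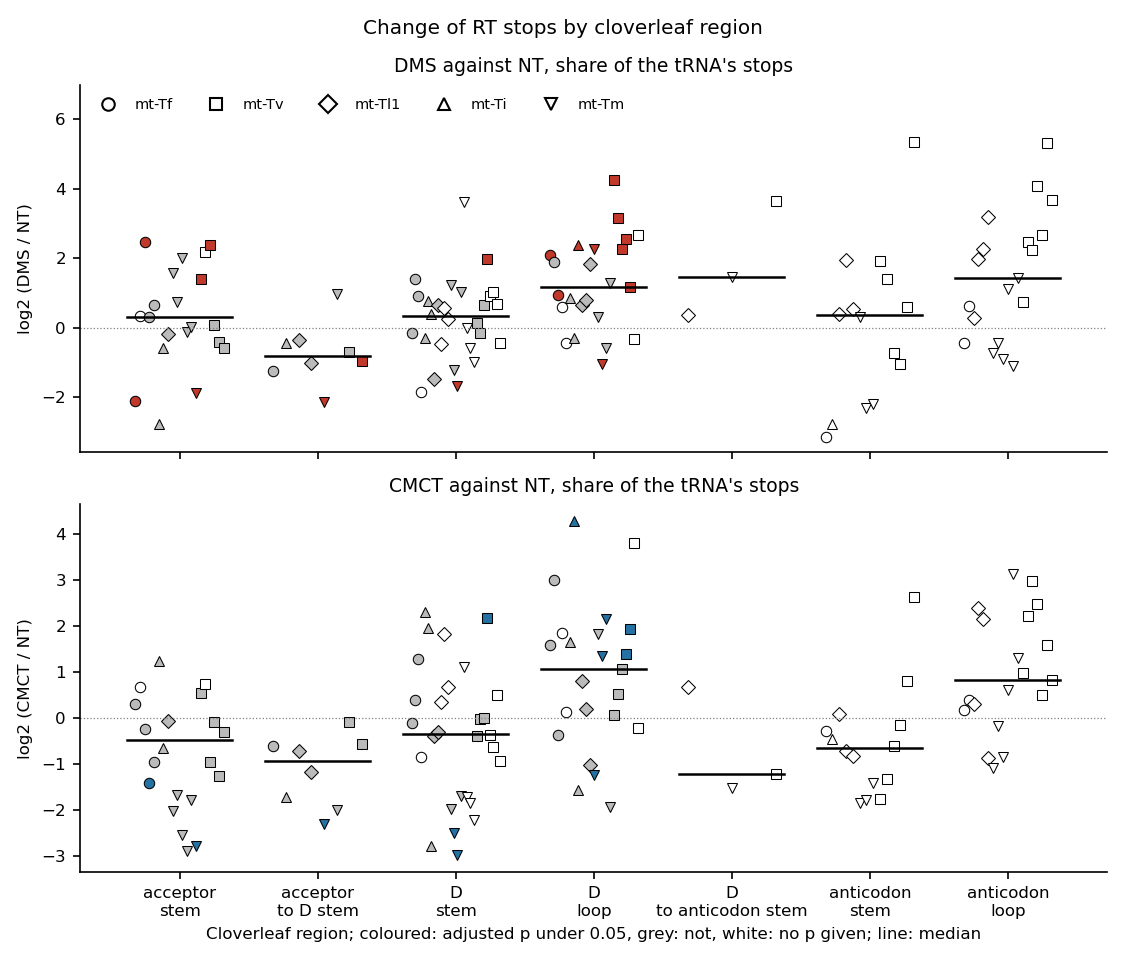
Log2 change of RT stops relative to the tRNA's total, DMS (top) and CMCT (bottom) against NT, for positions with at least 50 stops, by cloverleaf region; coloured points passed the test, grey ones did not, white ones have no p-value, and lines are medians over all positions of a region. The D-loop medians are 1.18 in DMS and 1.06 in CMCT and the anticodon-loop medians 1.43 and 0.82; the 2 positions without any NT stop are not drawn.

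Against the cloverleaf, median changes in share of paired and unpaired bases lay farther apart in CMCT than in DMS. At G and U, the bases CMCT prefers, the median log2 change was 1.95 over 19 unpaired positions and -0.40 over 36 paired ones. At A and C, those of DMS, it was 1.13 over 39 unpaired and 0.92 over 23 paired ones. The difference between the reagents was not tested. When both reagents were turned into 1 reactivity per base, from 0 to 1, 64 of 184 residues were highly reactive (above 0.7). Of these, 39, or 60.9% (95% Wilson interval 48.7% to 71.9%), fell in the D loop or the anticodon loop, while these loops make up 35.3% of the measured residues. The interval takes residues as independent, although they share 5 RNAs. It covers no spread between libraries and is not a test. A further 19 of the highly reactive residues lay in paired positions, 7 of them in mt-Tm and 6 in mt-Ti, against 1 in mt-Tf. With a pseudocount of 5 these counts were 5, 4 and 2. They were 5, 6 and 3 without replicate 1, and 7, 4 and 2 without replicate 2. Reactivities had no minimum count, and the paired U27 of mt-Ti held only 1 and 1 stops in DMS and 2 and 1 in CMCT. The D loop of mt-Tm had 5 of 5 residues highly reactive and that of mt-Ti 4 of 4, with 4 of 7 in mt-Tf and mt-Tv and 5 of 10 in mt-Tl1.

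Folding found the cloverleaf or all but 1 of its pairs in mt-Tf, mt-Tv and mt-Ti. From sequence alone, RNAfold found 20 of 20 pairs of mt-Tf, 19 of 20 of mt-Tv and 20 of 20 of mt-Ti, and the same numbers with the reactivities. For mt-Ti it found 17 of 20 with a pseudocount of 5 or without replicate 1, where the D stem was lost. For mt-Tl1 it found 12 of 20 both ways. For mt-Tm it found 11 of 18 from sequence and 9 with reactivities, but 14 with reactivities without replicate 1. Over all 5 tRNAs, 82 of 98 cloverleaf pairs were found from sequence and 80 with reactivities, out of 106 predicted pairs from sequence and 97 with reactivities. Residues of the 3′ part without counts were left without a constraint.

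The total of RT stops per tRNA was then compared between treatments, as CPM, that is counts relative to TMM-scaled library size. The TMM factors given above were lower in both NT libraries than in any treated library. They thus lower the CPM of DMS and CMCT against NT, and no fit used plain library totals. For mt-Tv the CPM was 344 and 384 in NT, 156 and 168 in DMS, and 365 and 480 in CMCT. DMS thus lay below both other conditions without overlap. The drop against NT passed (log2 fold change -1.17 ± 0.39 SE, edgeR adjusted p = 0.0418), as did the difference between DMS and CMCT (-1.38 ± 0.39, edgeR adjusted p = 0.0448). For mt-Tf it was 10.9 and 17.6 in NT, 6.37 and 8.54 in DMS, and 23.3 and 37.5 in CMCT. These 3 ranges do not overlap after TMM scaling, and for NT and DMS this depends on the TMM factors. CMCT rose over NT (1.10 ± 0.33, edgeR adjusted p = 0.0256), DMS lay below CMCT (-2.03 ± 0.34, edgeR adjusted p = 0.00244), and DMS against NT missed the threshold (-0.93 ± 0.33, edgeR adjusted p = 0.0536). This last drop passed with a replicate block (-0.91, edgeR adjusted p = 0.0046), with DESeq2 (-0.95, DESeq2 adjusted p = 0.0199) and with library sizes from mitochondrial genes (-1.63, edgeR adjusted p = 0.00112). The mitochondrial sizes moved the median of all genes to -0.62 in DMS, so they deepen drops in general. The drop of mt-Tf did not pass with RLE size factors or without genes of near-equal replicates (edgeR adjusted p = 0.0925 and 0.0650). For mt-Tm it was 43.1 and 54.2 in NT, 48.9 and 81.2 in DMS, and 84.9 and 134.7 in CMCT. CMCT rose here too (1.17 ± 0.37, edgeR adjusted p = 0.0315), and DMS did not pass (0.42 ± 0.36, edgeR adjusted p = 0.423).

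The remaining pair had no call in the main fit, which holds no replicate block. For mt-Tl1 the values were 11.4 and 20.0 in NT, 6.45 and 10.99 in DMS, and 10.7 and 16.4 in CMCT. For mt-Ti they were 1.39 and 4.23, 1.04 and 1.71, and 3.00 and 4.44. In DMS against CMCT the log2 fold changes of mt-Tl1 and mt-Ti were -0.64 ± 0.35 and -1.43 ± 0.45 (edgeR adjusted p = 0.294 and 0.0646). With a replicate block that of mt-Ti passed (-1.46, edgeR adjusted p = 2.37e-05) and that of mt-Tl1 did not (-0.65, edgeR adjusted p = 0.0609). In DMS against NT their log2 fold changes were -0.84 ± 0.35 and -1.02 ± 0.45 (edgeR adjusted p = 0.0878 and 0.104). With a replicate block they were -0.84 and -0.90, and both passed (edgeR adjusted p = 0.00553 and 0.00712). Without NT replicate 2 they were -0.38 and -0.01 (edgeR adjusted p = 0.608 and 0.987), and without NT replicate 1 they were -1.19 and -1.62 (edgeR adjusted p = 0.0762 and 0.0308). Both drops passed without DMS replicate 2 (-1.39 and -1.50, edgeR adjusted p = 0.00551 and 0.0213), without either CMCT library at nearly the same fold changes (edgeR adjusted p from 0.0346 to 0.0424), and with library sizes from mitochondrial genes (-1.58 and -1.76, edgeR adjusted p = 0.00158 and 0.000953). The mitochondrial sizes moved the median of all genes to -0.62 in DMS. In the main fit DMS thus raised 0 and lowered 1 of the 5 tRNAs, where 13.8% and 12.5% of the 13216 genes tested were called. CMCT raised 2 and lowered 0, where 15% and 13.9% were called. DMS against CMCT gave 0 higher and 2 lower, where 2.47% and 6.79% were called. The comparisons share libraries and are not independent.

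**Figure D5:**
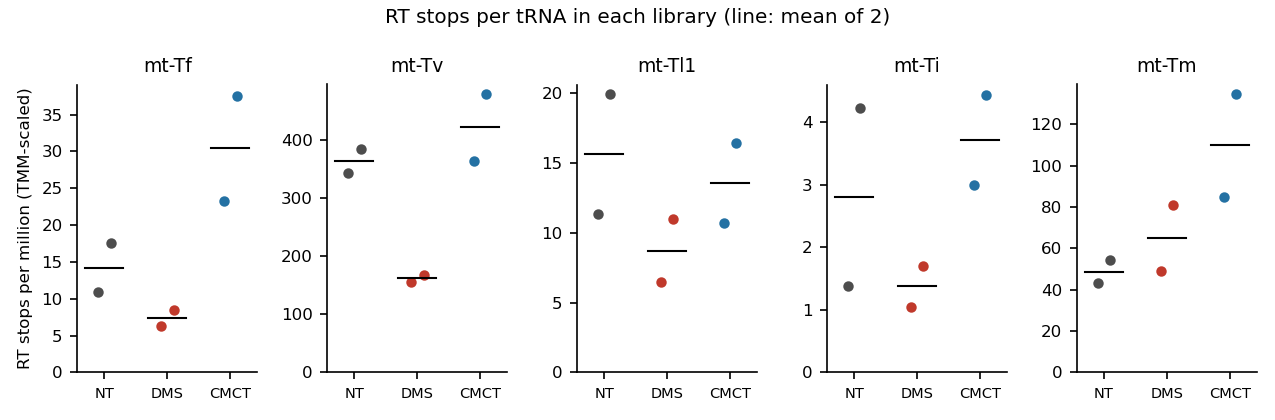
RT stops per tRNA in TMM-scaled CPM in the 2 libraries of NT, DMS and CMCT, points for libraries and lines for means, each panel on its own axis from 0. DMS lies lowest in mt-Tf and mt-Tv, and CMCT lies highest in mt-Tf and mt-Tm, where NT does not overlap it.

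These calls depended on which positions and libraries were counted. The totals include positions within 50 bases of the 3′ end, which held 57.3% and 59.0% of the CMCT stops of mt-Tf and 75.2% and 78.7% of those of mt-Tm, so that their p-values rest in part on counts taken above as 1 measurement. The raw totals of the CMCT replicates were close (5898 and 5707 for mt-Tf, 21471 and 20492 for mt-Tm), while the CMCT libraries differ in depth, and so did their CPM. With only positions more than 50 bases from the 3′ end, the CMCT change of mt-Tm was -0.11 and that of mt-Tf 0.69 (edgeR adjusted p = 0.852 and 0.197), and the DMS drops of mt-Tf, mt-Tv and mt-Tl1 passed at -1.58, -1.39 and -1.43 (edgeR adjusted p = 0.00936, 0.0158 and 0.0416). The drop of mt-Tv in DMS no longer passed without any single one of the NT or DMS libraries (edgeR adjusted p from 0.0883 to 0.225), at log2 fold changes from -1.09 to -1.36. The difference of mt-Tv between DMS and CMCT no longer passed with RLE size factors (-1.27, edgeR adjusted p = 0.0866), without genes of near-equal replicates (-1.39, edgeR adjusted p = 0.0575), or without any single library other than CMCT replicate 1 (-1.17 to -1.40, edgeR adjusted p from 0.0914 to 0.239). That of mt-Tf was lost only without DMS replicate 1 (-1.82, edgeR adjusted p = 0.0676). With RLE size factors neither CMCT rise passed, at 0.97 for mt-Tf and 1.05 for mt-Tm (edgeR adjusted p = 0.0891 and 0.0845). Neither CMCT rise passed without NT replicate 1, NT replicate 2, DMS replicate 1 or CMCT replicate 2.

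In the same fit, other mitochondrial genes gave the following values, and no difference between groups of genes was tested. Both rRNAs rose in DMS (median log2 fold change 2.03) and 1 of 2 in CMCT. Of the 13 mitochondrial mRNAs, 3 rose and 0 fell in DMS (median 0.81), and their median in CMCT was 0.15. Of the other 17 mitochondrial tRNAs, 1 rose and 9 fell in DMS (median -1.27), and 0 rose and 1 fell in CMCT (median 0.36). The median of all genes was 0.01 in DMS and 0.11 in CMCT, and that of the 5 tRNAs -0.93 and 0.41. Of 18 nuclear genes for the cutting, modification and charging of mitochondrial tRNAs, 10 were tested, and 0 rose and 2 fell in DMS, and 0 rose and 1 fell in CMCT. By the distance of their log2 profiles over the 6 libraries, the tested gene most like mt-Ti was mt-Td, the mitochondrial tRNA for aspartate, at 0.511. The nearest to mt-Tf, mt-Tv, mt-Tl1 and mt-Tm were a 7SK copy at 0.330, a U4 copy at 0.214, Snhg9 at 0.320 and the pseudogene Gm6462 at 0.277.

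RNA-seq alignments of 50 bases were counted over the borders of these tRNAs in the untreated line, in 1 library with 31857551 alignments, of which 11.2% were mitochondrial. Alignments that overlapped a tRNA by at least 5 bases numbered 160 for mt-Tf, 97 for mt-Tv, 316 for mt-Tl1, 123 for mt-Ti and 92 for mt-Tm. Those that crossed the 3′ border by at least 5 bases on both sides were 136 for mt-Tf, or 85.0% (95% exact binomial interval 78.5% to 90.2%), and 66 for mt-Tv, or 68.0% (57.8% to 77.2%). Both run into rRNA genes. For mt-Tl1, by contrast, 177 crossed the 5′ border, toward mt-Rnr2, or 56.0% (50.4% to 61.6%), and 53 the 3′ border, or 16.8%. For mt-Ti 37.4% crossed the 5′ border, 21.95% the 3′ border, and 21.95% lay inside. For mt-Tm 49 of 92 lay inside the tRNA, or 53.3% (42.6% to 63.7%). With at least 10 bases on both sides, the shares at the 3′ border of mt-Tf and at the 5′ border of mt-Tl1 were 66.9% and 33.3%, and those of mt-Ti were 18.75% at the 5′ border and 11.6% at the 3′ border. The 5′ border of mt-Tf is the first base of the linear reference, so alignments across it could not be seen. Mean coverage was from 44.6 to 105.8 alignments per base over the tRNAs, against 12240 over mt-Rnr1, 97930 over mt-Rnr2, 420.7 over mt-Nd1 and 95.9 over mt-Nd2. The rRNA was depleted before sequencing, and what this did to these counts was not tested. Per the labels this library comes from a kit that does not keep the strand, and reads of the other strand cannot be told apart from those of the tRNA. Of the overlapping alignments, 98.1% were on the plus strand for mt-Tf and 88.7% for mt-Tv, but 37.0% for mt-Tl1, 31.7% for mt-Ti and 53.3% for mt-Tm. How well a free tRNA enters such a library was not tested, so these shares are not the fraction of joined molecules.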

How the data were processed

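For E14 mouse ESCs, 6 CIRS-seq libraries (2 replicates of NT, DMS and CMCT) and a single RNA-seq library were analysed. Per the labels and the study's methods, the authors mapped the reads with Bowtie to an mm9 genome carrying the single-base variants of E14, and deposited raw counts of RT stops for each transcript position, placed on the modified base, with strand kept. No counts lie in the last 25 bases of any transcript. The RNA-seq file holds alignments as deposited by the authors. The submitters' processing notes name Bowtie 1.0.0, TopHat2 2.0.6, bedtools 2.17.0 and FastQC 0.10.1, and how reads with several places were treated is not given in the sources used here. Files that combine replicates were not used.

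Each genomic position was counted once per gene, with 26792 of 26827 transcripts matched to the mm9 annotation. From 0.0799% to 0.186% of the listed counts belonged to unmatched transcripts and were left out. Gene totals entered the quasi-likelihood test of edgeR 4.0.16, run under R 4.3.3 (TMM, filterByExpr, all 6 libraries, Benjamini-Hochberg adjustment at 0.05 over all genes), and counts per position with the same test, the total of the gene as offset and at least 50 stops over the 6 libraries, adjusted over all positions. The scripts were tested on simulated data. Alternatives were RLE size factors, no filter, library sizes from mitochondrial genes, a replicate block, leaving out each library and DESeq2 1.42.0. For positions they were also TMM-scaled library sizes in place of the gene total, and minimums of 25 and 200 stops. Exact permutation of 2 against 2 libraries cannot give a two-sided p under 0.333 and was not used. Reactivity was log2 of the treated count divided by the NT count, each with a pseudocount of 1, scaled to the tRNA's mean, set to 0 where negative, Winsorised at 90% and taken as the larger of DMS and CMCT. RNAfold 2.7.2 used it as pseudo-energies (slope 1.8 and intercept -0.6 kcal/mol). The Wilson interval takes residues as independent, and the binomial intervals cover counting error only. Figures were drawn with matplotlib 3.10.9.

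The tRNAs and gene lists were chosen with earlier results of these data known. Positions were named by rule: per tRNA and comparison up to 3 largest rises and 3 largest drops among those called and outside both NT libraries, position 9, the anticodon loop, and the 3 positions with most NT stops. Other positions named were chosen after their values were seen. For genes most alike, the rule took the 3 smallest Euclidean distances of centred log2 values over the 6 libraries, of which the nearest is printed.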

Additional observations from a re-analysis of the deposited data

How the results depend on the processing

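Limits of depth and processing apply throughout: mt-Ti held 222 to 759 RT stops per library, DMS replicates differed most, and only the 5′ part of each tRNA was measured. Of the 5 tRNAs, DMS against NT called 1, and it called 4 with library sizes from mitochondrial genes, 2 with DESeq2, 3 with positions over 50 bases from the 3′ end and 0 to 4 without 1 library. CMCT against NT called 2, and it called 0 with RLE size factors, 0 with mitochondrial library sizes, 0 with positions over 50 bases from the 3′ end (where mt-Tm turned to -0.11) and 0 to 2 without 1 library. DMS against CMCT called 2, and it called 1 with RLE size factors, 5 with mitochondrial library sizes, 1 without genes of near-equal replicates and 0 to 3 without 1 library. Scaling to mitochondrial genes moved the median of all genes from 0.01 to -0.62 in DMS, with 538 of 4457 calls higher against 1829 of 3485. Calls at positions, 19 in DMS and 12 in CMCT, ran from 0 to 17 and from 0 to 13 without 1 library, where the lone library of a condition was assumed to vary like the others, and CMCT called 3 without positions of near-equal replicates. The 3 alternatives on near-equal or distant positions were chosen after seeing the data. The causes were not tested.

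Deviations of same-numbered libraries correlated at 0.55 for NT and DMS, 0.02 for NT and CMCT and -0.10 for DMS and CMCT. Replicate numbers thus went with a shared deviation in NT and DMS, but not in CMCT. The main fit holds no replicate block. With a replicate block, 4 of the 5 tRNAs were called in DMS, 2 in CMCT and 3 in DMS against CMCT, and 15 and 7 positions in DMS and CMCT.

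Over the whole series, 3485 genes called in DMS against NT became 5616 with the replicate block, 5595 with DESeq2 and 1719 to 4619 without 1 library. The 161155 positions called in DMS became 82286 without positions of near-equal replicates, 62886 at 200 or more stops and 0 to 122291 without 1 library, and the 69562 in CMCT became 7721, 36912 and 3616 to 19850, and 46624 with the block. The share of highly reactive residues in loops ran from 58.2% to 62.5% and the cloverleaf pairs found from 76 to 82.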
